A study of Homo sapiens with 2 samples.

Results

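The RNAs of 6 genes of the apoptosis pathway, TNFRSF21, MCL1, PMAIP1, CYCS, BIRC5 and PARP1, carried YBX1 binding sites in a PAR-CLIP experiment. A site was assigned to a gene when its midpoint lay within the GENCODE span of that gene on the strand of the site. This gave 9 sites in the 6 genes, of 2054 listed sites and 1504 genes with at least 1 site in all. PARP1 had 3 sites, CYCS had 2 and the other genes had 1 each. The genes were selected on the presence of a listed site, so the presence and number of sites are a description of the selection and not a finding. For comparison, among 18986 protein-coding genes that have a 3′UTR, 6.77% had a site in their span.

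The cells were HEK293, an established line of human embryonic kidney origin, in 1 group of 2 replicates, and the question was which RNAs YBX1 binds directly. The study used the result beside knockdown experiments in medulloblastoma cells, which are not analysed here. Cells were fed 4-thiouridine, a uridine analog that crosslinks to bound protein under UV light, and the RNA around the bound protein was trimmed with RNase T1, which cuts after G. According to the methods, a tagged YBX1 (FLAG/HA) was stably overexpressed in a T-REx Flp-In derivative of the line and precipitated through the tag, while the antibody in the labels is one against YBX1. Both replicates were pooled by the authors into 1 list of sites without read counts or scores. The depth behind a site is therefore unknown, no site can be called stronger than another, and no spread between replicates can be given. The list gives no RNA levels, so the cell line could not be checked against its marker genes.

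YBX1 is a cold-shock domain protein that packages mRNA in the cytoplasm and is known to influence mRNA stability and translation. In apoptosis, signals from death receptors at the cell surface, or from BCL2 family proteins at the mitochondrion, lead to the activation of caspases, which then cleave proteins of the cell. The genes act at successive steps. TNFRSF21 is a receptor with a death domain, MCL1 protects mitochondria and PMAIP1 (NOXA) opposes MCL1. CYCS encodes cytochrome c, which triggers caspase activation once it leaves the mitochondrion, BIRC5 (survivin) is a member of the inhibitor of apoptosis family that also acts in mitosis, and PARP1 is a DNA repair enzyme that caspases cleave.

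The sequences of all 9 sites are shown because they differ in the features by which YBX1 sites are described, their content of C, A and G. They are given 5′ to 3′ on the RNA strand, with T for U, as read from GRCh38. Capitals mark copies of 5 tetramers searched on the RNA strand. They were CATC with its relative CACC, then CAAC with the overlapping AACA, and finally AACT, which can also overlap CAAC. Sites of a gene are numbered from the 5′ end of its RNA.
TNFRSF21: ataggtgggagcttctgggctgg
MCL1: tctgtggactccatttaaaaatag
PMAIP1: tatacacatacttacatacttatatg
CYCS site 1: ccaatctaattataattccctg
CYCS site 2: attattCAACACCtctcaCATCttacag
BIRC5: cacaAACTacaattaaAACTaag
PARP1 site 1: ctactCATCttCAACAag
PARP1 site 2: aacCAACTcctactacaagctgcagc
PARP1 site 3: tttctctAACTtctcaag

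At least 1 of the 5 tetramers was present in 5 of the 9 sequences, those of the 3 PARP1 sites, CYCS site 2 and BIRC5. Over all 2054 sites this share was 70.4%, and in equally wide windows placed at a distance of 100 nt within the exon or intron of the site it was 27.4% (n = 2813 windows). The second CYCS site held 4 different ones, all but AACT. The first PARP1 site held CATC, CAAC and AACA. The sites of TNFRSF21, MCL1 and PMAIP1 and the first site of CYCS held none. Singly, the tetramers were present in 14.8% (CACC), 25.2% (CATC), 26.7% (CAAC), 28.3% (AACT) and 31.0% (AACA) of all sites, and in 5.94%, 6.40%, 5.79%, 8.60% and 9.24% of the windows, in the same order. None of the 5 tetramers holds a G, and the median share of G was 4.76% in all sites and 20% in the windows. How far this difference in G accounts for the shares of tetramers was not tested. How the 5 tetramers were chosen is not documented, so these shares are a description and not a test. A match describes the letters only.

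On the reference transcripts, 6 of the 9 sites lay in 3′UTRs, 2 in coding exons and 1 in an intron. Of all sites, 46.4% lay in the 3′UTR and 30.9% in a coding exon of the reference transcript of their gene. When a site counted as 3′UTR if any GENCODE transcript has it there, 8 of the 9 did, against 55.4% of all sites. The difference comes from PARP1, of which other annotated transcripts place both coding sites in a 3′UTR. How abundant these transcripts are was not measured. The authors' annotation gave 5 in 3′UTRs, 2 in exons, 1 in an intron and 1 in a promoter. No other GENCODE gene overlapped any of the 9 sites on either strand.

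**Figure D1:**
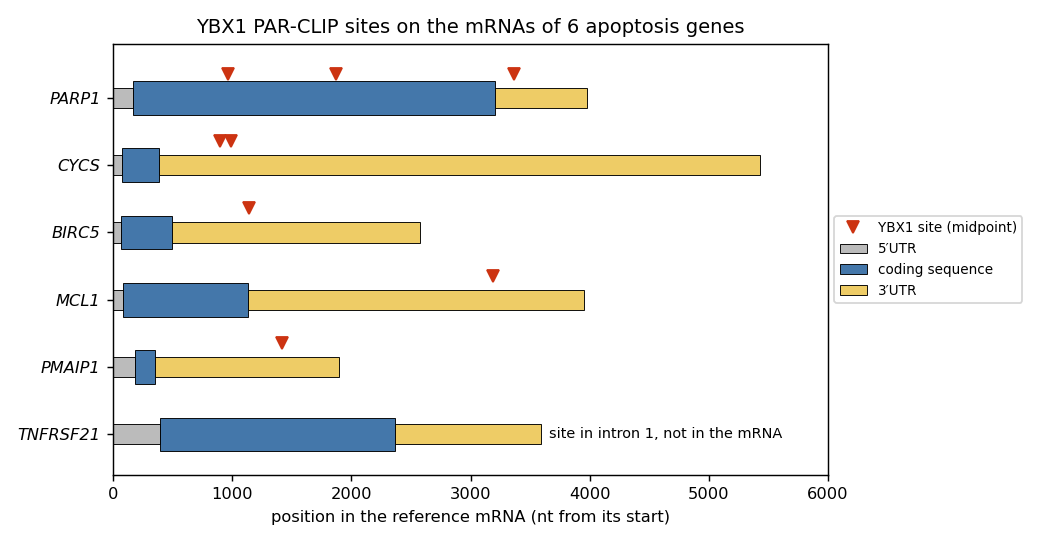
Maps of the reference mRNAs of the 6 genes to scale, with the position in nt from the mRNA start on the x axis. Boxes are the 5′UTR, coding sequence and 3′UTR, and triangles are the midpoints of YBX1 sites. The CYCS sites lie close together near the start of a 3′UTR of 5045 nt, the MCL1 and PMAIP1 sites lie towards the end of theirs, PARP1 has 2 sites in coding sequence and 1 in the 3′UTR, and the TNFRSF21 site is not in the mRNA.

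TNFRSF21, the death receptor (chromosome 6, 47231532 to 47309905, minus strand), stood apart from the other genes by position. Its site (47304508 to 47304530) lay in intron 1, which is 22820 nt long, 4885 nt downstream of exon 1 and 17912 nt upstream of exon 2. GENCODE holds 1 transcript of this gene, so no annotated isoform has the site in an exon. Introns held 4.77% of all sites (n = 98) when every transcript was considered. The base composition also differed from that of the other 8 sites. The TNFRSF21 site had 11 G in 23 bases (47.8%), of which 10 came before its last base, and 26.1% C and A. The other 8 sites had between 3.57% and 16.7% G, and in each of them C and A made up a larger share, up to 78.3%. Among all sites, 11 had a G share at or above that of TNFRSF21 and 22 had a lower share of C and A. The median G share was 4.76% over all sites, 4.55% in 3′UTRs and 9.76% in introns, and 16.3% of intronic sites had 8 or more G before the last base, against 0.704% of 3′UTR sites. A high G share was not particular to introns. Intergenic sites (n = 189) had a median of 21.7% G, and 19.6% of them had 8 or more G before the last base. The base before the site was not a G, whereas its last base was. Both windows 100 nt away in the intron had 30.4% G and 43.5% C and A. The sequence occurs once in the genome, with no other place within 2 mismatches.

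**Figure D2:**
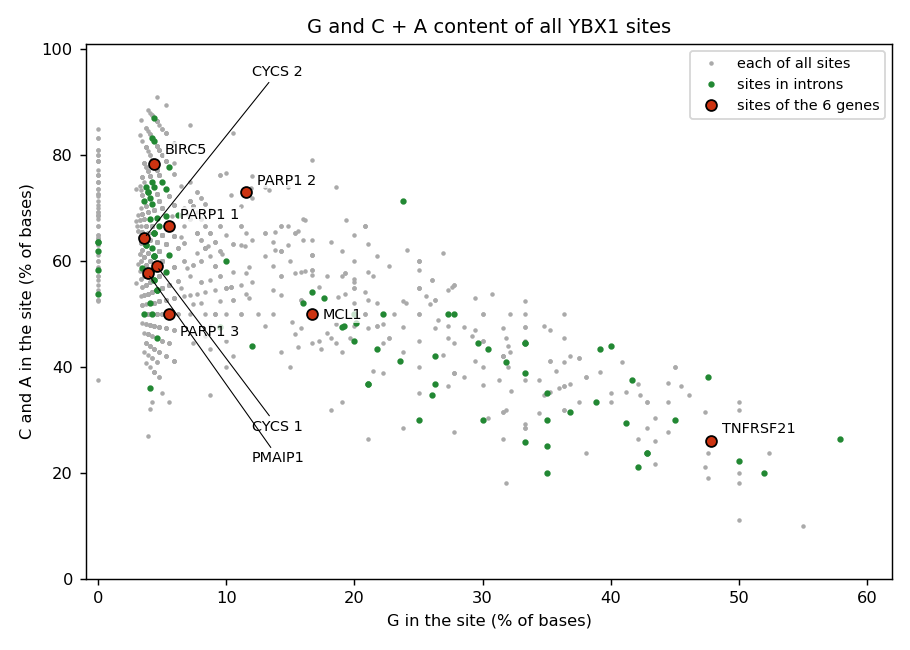
The share of G (x axis, % of bases) against the share of C and A (y axis, % of bases), with 1 point for each of the 2054 sites. Green points are sites in introns, and red points are the 9 sites of the 6 genes. The TNFRSF21 site lies at 47.8% G and 26.1% C and A among intronic sites rich in G, MCL1 lies at 16.7% G, and the other 7 sites lie at 11.5% G or less.

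MCL1 (chromosome 1, 150560895 to 150579738, minus strand) encodes a short-lived anti-apoptotic protein of the BCL2 family. Its site (150575309 to 150575332) began 2043 nt after the stop codon in a 3′UTR of 2817 nt, at 72.9% of its length, in exon 3 of 3. Values over all 3′UTR sites are taken over the 1137 sites in a 3′UTR of any transcript, a wider definition than the reference transcript used for the 6 sites described here. Of all 3′UTR sites, 79.9% lay nearer to the stop codon in relative position. Among 8 GENCODE transcripts of MCL1, the site is 3′UTR in 3, noncoding exon in 2 and intron in 1. The authors' gene column did not name MCL1 for any site. It gave this one as the promoter of ADAMTSL4-AS1, a noncoding RNA gene on the minus strand in GENCODE, whose boundary nearest to the site is 756 nt away in RefSeq (GRCh38.p14) and 13193 nt away in GENCODE. The site had 3 G before its last base, which 14.8% of all sites matched or exceeded, and equal shares of A and T (33.3% each). It contained ATTTA, the core of AU-rich elements known from short-lived mRNAs, as did 6.95% of all 1137 3′UTR sites. The whole 3′UTR of MCL1 holds 10 copies of ATTTA. Its sequence has no second place in the genome within 2 mismatches.

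PMAIP1 (chromosome 18, 59899996 to 59904305, plus strand) encodes the BH3-only protein that binds MCL1 and is known as a target of p53. With 54 codons in an mRNA of 1899 nt, its coding sequence is the shortest of the 6, and the 3′UTR makes up 81.7% of the mRNA. The site (59903807 to 59903832) began 1054 nt after the stop codon in a 3′UTR of 1552 nt, at 68.7% of its length. This last exon is reached by 1 of 3 GENCODE transcripts at the site. It had 10 T in 26 bases, the most of the 9 sites, where 14.6% of all sites had as many or more. T marks the uridines at which 4-thiouridine can crosslink, and the 9 sites held between 4 and 10 of them (median of all sites 7). The 3′UTR has 5 copies of ATTTA, the nearest 140 nt from the site. No other place in the genome matched the sequence with 0 or 1 mismatch, and 4 matched with 2.

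For MCL1 and PMAIP1 alike, 3 of the 4 copies of AATAAA, the letters of the canonical polyadenylation signal, lay between the stop codon and the site. In CYCS, BIRC5 and PARP1 none preceded a 3′UTR site. Of all 3′UTR sites, 45.0% had at least 1 copy of AATAAA between the stop codon and the site. Which of these signals HEK293 cells use was not measured here.

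CYCS (chromosome 7, 25118656 to 25125260, minus strand) encodes cytochrome c, an electron carrier of the respiratory chain that joins APAF1 in the apoptosome after its release. Both sites lay in the 3′UTR, which at 5045 nt makes up 92.9% of the mRNA and is longer than that of 86.9% of genes with a site. Site 1 (25123180 to 25123201) began 500 nt after the stop codon and site 2 (25123087 to 25123114) 587 nt after it, with 65 nt between them. They lay at 10.1% and 11.9% of the 3′UTR, and 12.8% and 14.8% of all 3′UTR sites lay nearer to the stop codon in relative position. Only 1 of 4 GENCODE transcripts of CYCS contains them. Site 1 lay 1 nt from a copy of ATTTA, of which this 3′UTR has 24, and the nearest copy to site 2 was 59 nt away.

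CYCS has many processed copies in the genome. The sequence of site 1 occurs at 2 other places in the genome, of which 1 is within 5 kb of a CYCS pseudogene (CYCSP46), and at 10 more with 1 mismatch, of which 8 are near such a pseudogene. With 2 mismatches there are 13 more, of which 11 are near one. Site 2 occurs once, with 3 other places at 1 mismatch, of which 2 are near a CYCS pseudogene, and 0 at 2 mismatches. Each of these 3, on chromosomes 6, 8 and Y, lies beside a match to site 1 with 0 or 1 mismatch. The 2 exact copies of site 1 are among those matches, also the one that is not near an annotated CYCS pseudogene. GENCODE lists 42 CYCS pseudogenes, and 0 of them had a site in their own span. None of the places named above lies within the span of a CYCS pseudogene on its strand, so that count could not include a site there. The share of reads that may stem from copies of CYCS was not tested, since the list holds no reads.

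BIRC5 (chromosome 17, 78214186 to 78225636, plus strand) encodes survivin, which inhibits cell death and serves in the chromosomal passenger complex at cell division. Its site (78224190 to 78224212) began 636 nt after the stop codon in a 3′UTR of 2081 nt, at 31.1% of its length, in exon 4 of 4. The site is 3′UTR in 3 of 11 GENCODE transcripts, and the other 8 do not reach it. It had the highest share of A of the 9 sites, with 13 of 23 bases (56.5%), which 98.9% of all sites fell below, and 78.3% C and A. The windows 100 nt to either side held 17.4% and 43.5% C and A. AACT occurred at 2 places in the site, and the 3′UTR has 0 copies of ATTTA. The sequence occurs once in the genome, with 4 other places at 2 mismatches.

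PARP1 (chromosome 1, 226360210 to 226408154, minus strand) encodes poly(ADP-ribose) polymerase, which marks DNA breaks and is inactivated by caspase cleavage. It had the most sites of the 6 genes, and 93 of 1286 protein-coding genes with a site (7.23%) had 3 or more. Site 1 (226386353 to 226386370) covered codons 264 to 269 of 1014 in exon 6 of 23. Site 2 (226379167 to 226379192) covered codons 565 to 574 in exon 12. Site 3 (226361292 to 226361309) began 151 nt after the stop codon in exon 23, at 20.7% of a 3′UTR of 769 nt, the shortest of the 6. In the mRNA, 887 nt lay between sites 1 and 2 and 1475 nt between sites 2 and 3.

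Both coding sites of PARP1 ended close to the downstream end of their exon, with 27 nt left in exon 6 and 25 nt in exon 12. Of 449 coding sites that lay whole in an exon before the last, 25.6% had 30 nt or less to the downstream junction (median 63 nt). Of 26 GENCODE transcripts of PARP1, site 1 is coding in 4, 3′UTR in 1 and noncoding exon in 6. Site 2 is coding in 2, 3′UTR in 3 and noncoding exon in 7, and site 3 is 3′UTR in 5 and noncoding exon in 13.

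Among the PARP1 sites, site 2 was the widest, with 26 nt, and sites 1 and 3 had 18 nt each, a width that 95.7% of all sites reached or exceeded. Site 2 had the largest share of C of the 9 sites (38.5%) and did not end in G, and site 3 did not begin after a G. The sequences of sites 1 and 3 each occur at 1 other place in the genome, in no annotated gene on that strand. With 1 mismatch, site 1 matched 5 further places, 0 of them in an annotated gene on that strand, and site 3 matched 30, of which 12 lie in one. With 2 mismatches, site 1 matched 305 more, of which 75 lie in an annotated gene on that strand, and site 3 matched 570, of which 180 do. Of the 30 places with 1 mismatch to site 3, 3 differ by a T-to-C change, the change that PAR-CLIP reads as crosslinking. Site 2 has no other place within 2 mismatches. The placement of sites 1 and 3 rests on the authors' alignment.

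Over the 9 sites together, 58.7% of 208 bases were C or A (Wilson 95% interval 51.9 to 65.1), against 46.2% of 346 bases in 15 windows beside them (41.1 to 51.5). In all sites of up to 60 nt and in all windows the values were 60.6% and 48.8%. G made up 11.5% of the bases of the 9 sites (7.88 to 16.6), 7.03% without the TNFRSF21 site (4.15 to 11.7) and 20.8% in the 15 windows (16.9 to 25.4). These intervals cover counting error only, and bases of 1 site are not independent. Over all sites and all windows G was at 8.08% and 21.0%. A lower share of G leaves more for the other bases, so the C and A shares are not independent of it. RNase T1 cuts after G, and its part in the difference in C and A was not tested. In 10 of the 15 windows the share of C and A was lower than in the site they belong to, in 2 it was equal, and in 3 it was higher, of which 1 was beside CYCS site 2 and 2 were beside TNFRSF21. For PARP1 site 2 no window could be placed in its exon.

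**Figure D3:**
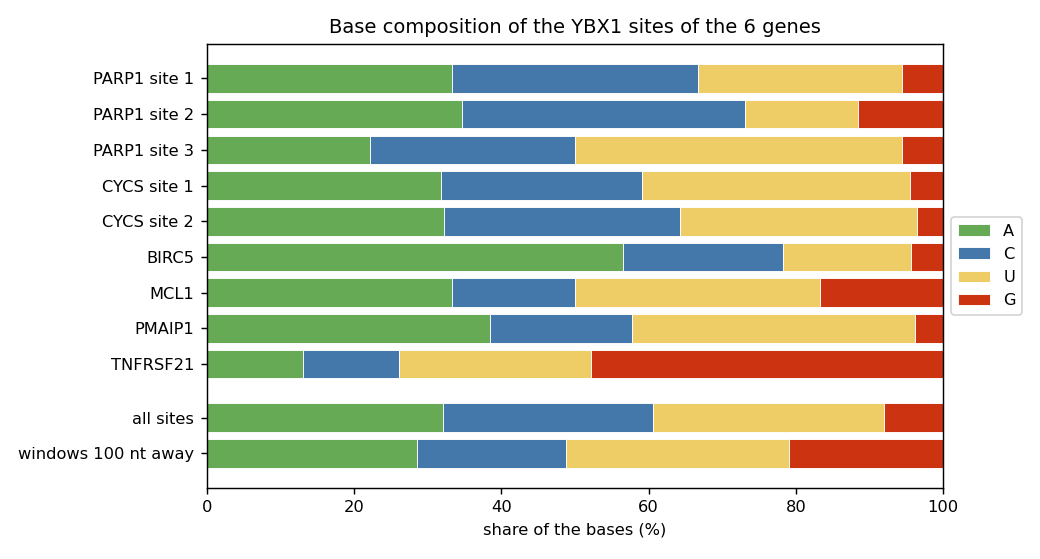
The share of A, C, U and G (x axis, % of bases) in each of the 9 sites, in all sites of up to 60 nt and in the windows 100 nt away from all sites. A makes up 56.5% of the BIRC5 site and G 47.8% of the TNFRSF21 site, whereas over all sites A is at 32.1% and G at 8.08%.

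A base G preceded 7 of the 9 sites, all but those of TNFRSF21 and PARP1 site 3, as it did 79.2% of all sites. With the listed end read as exclusive, 8 ended in G, all but PARP1 site 2, as did 87.6% of all sites. That reading of the end was chosen because plus-strand sites then end in G, so the last base is no separate finding. On the minus strand the reading sets the first base instead, so there the G before a site is no separate finding either. In 6 of the 9 sites there was no G before the last base. The widths ranged from 18 to 28 nt around the median of 22 nt of all sites.

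Per kb of mRNA, PARP1 had 0.754 sites, PMAIP1 0.527, BIRC5 0.389, CYCS 0.368 and MCL1 0.253, against a median of 0.300 over 1149 genes with a site in the reference mRNA. TNFRSF21 had none in its mRNA. Each value rests on 1 to 3 sites, so the order of these genes is not resolved. PMAIP1, BIRC5 and MCL1 were selected for a site and had 1 each, so their values follow from mRNA length alone. PMAIP1 has the shortest mRNA of the 6 genes. In relative position, both CYCS sites, PARP1 site 3 and the BIRC5 site lay in the first 31.1% of their 3′UTRs and those of PMAIP1 and MCL1 at 68.7% and 72.9%. The median of all 3′UTR sites was 43.3%, with quartiles at 20.8% and 66.5%. A copy of ATTTA lay within 50 nt of 2 of the 6 3′UTR sites, CYCS site 1 and MCL1. Over the 1137 sites in a 3′UTR of any transcript, by which 8 of the 9 would count, the share was 25.1%.

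**Figure D4:**
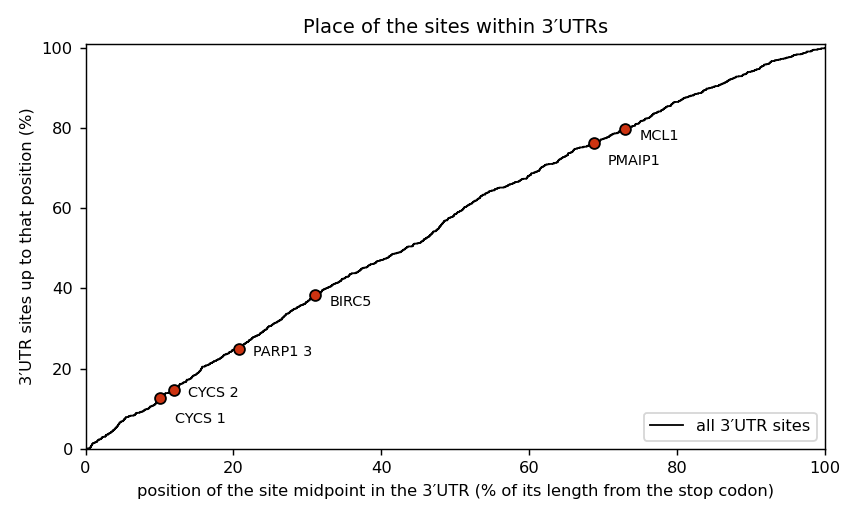
The cumulative share of all 1137 sites in 3′UTRs (y axis, %) by the position of their midpoint in the 3′UTR (x axis, % of its length from the stop codon), with the 6 sites of CYCS, PARP1, BIRC5, PMAIP1 and MCL1 as red points. The points lie between 10.1% and 72.9% of the 3′UTR.

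The other genes of the pathway were taken from 10 lists of 65 genes by role, which include the 6 genes. In all, 10 of the 65 genes had a site (15.4%). Of the 59 genes that had not been selected for a site, 4 had one (6.78%), beside 6.77% of all protein-coding genes that have a 3′UTR. Genes chosen for a site raise the share of the 65 and, once removed, lower that of the 59. Neither share therefore measures how often genes of the pathway are bound. The 4 genes were DIABLO, DFFA, LMNB1 and MDM4. DIABLO encodes a mitochondrial protein that blocks inhibitors of apoptosis, and its site (chromosome 12, 122216841 to 122216865) began in codon 107 of 239. On the same strand, 2 further annotated genes cover this position. DFFA encodes the inhibitor of the caspase-activated DNase, and its site (chromosome 1, 10458298 to 10458315) lay 3175 nt after the stop codon in a 3′UTR of 4968 nt, which the authors' annotation calls intergenic. The site of LMNB1, a lamin cleaved by caspases (chromosome 5, 126836790 to 126836811), began 526 nt after the stop codon. That of MDM4, an inhibitor of p53 (chromosome 1, 204553736 to 204553759), began 4054 nt after it, in a 3′UTR of 8438 nt. Each of these 4 sites began after a G, ended in one, held no other G and occurs once in the genome.

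By role, 1 of 12 death receptors and ligands had a site, TNFRSF21, and 0 of 7 adaptors and regulators of receptor complexes, among them FADD and RIPK1. None of the 7 caspases had one, among them CASP8 and CASP9. In the BCL2 family, 1 of 6 anti-apoptotic members (MCL1), 1 of 8 BH3-only members (PMAIP1) and 0 of 3 pore-forming members, among them BAX and BAK1, had a site. Of 6 genes of the apoptosome and of proteins released by mitochondria, CYCS and DIABLO had a site. BIRC5 was 1 of 7 inhibitors of apoptosis, XIAP and BIRC2 being among those without. Of 6 nuclear caspase substrates 3 had a site, and of 3 genes of p53 and its regulators 1 did. These counts include the 6 genes selected for a site, and 6.77% of all protein-coding genes with a 3′UTR had one. Lists of 3 to 12 genes are too short to show whether a role has more or fewer sites than other genes. 3′UTRs had a median length of 1816.5 nt in the 10 genes with a site and of 1115 nt in the other 55. Expression in these cells was not used, so absence from the list is no evidence that an RNA is unbound.

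**Figure D5:**
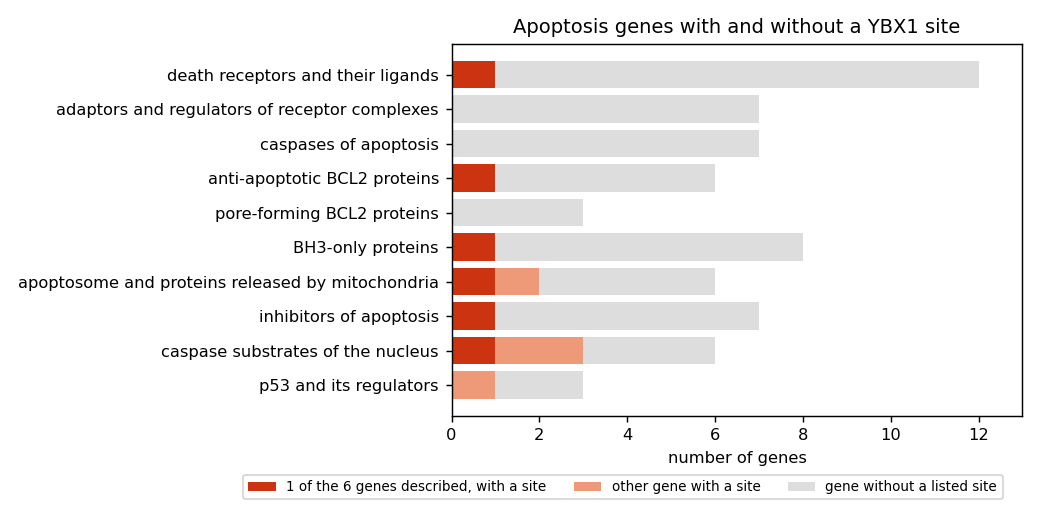
The number of genes (x axis) in each of the 10 lists of apoptosis genes, divided into the 6 genes described here, other genes with a YBX1 site and genes without a listed site. The caspases, the receptor adaptors and the pore-forming BCL2 proteins have no gene with a site, in lists of 7, 7 and 3 genes. Among all protein-coding genes with a 3′UTR, 6.77% had a site.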

How the data were processed

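The deposited list gives, per the labels and the methods, the genome positions of YBX1 clusters from both replicates pooled. For these deposited positions, adapters were removed by the authors with cutadapt (version 1.4.1, from the submitters' processing notes). The PARA-suite aligned reads to GRCh38 and a transcriptome, BMix with default parameters called clusters by strand, and HOMER annotated them. It holds no counts, so depth and precision per site are unknown. The listed end was read as exclusive, so a site stops 1 base before it. On the plus strand 85.2% of sites then end in G, against 22.2% with the listed end included. On the minus strand the RNA ends at the listed start, where 90.0% had G under either reading of the listed end. There the reading moves the first base, and 74.9% of minus-strand sites are then preceded by G. Sites were placed by their midpoint in GENCODE release 44 on GRCh38, the build of the list, with the MANE Select transcript as reference. Readthrough genes were left out of the gene background. Copies of a sequence were counted on both strands of the main chromosomes. The conversion of genome positions to transcript positions and regions was tested on simulated data. Of 893 single bases planted in 300 reference transcripts, 100% were recovered. The choice of gene for a site and the use of its midpoint were not part of that test. Analyses used Python (3.11.15), pysam (0.24.0) and SciPy (1.17.1). No test was run, because the genes were selected for their sites and the replicates are pooled. The members and the gene lists were chosen with earlier results of these data known. The text names the 6 genes, every gene of the lists with a site and up to 3 without one per list. The alternatives were any overlap, no regard to strand, sites wider than the median, sequences that occur once in the genome, the authors' names and classes, exons alone, other transcripts, extended sites, the listed end, windows 300 nt away and ATTTA within 100 nt. The composition without TNFRSF21 and copies with 1 mismatch were added after seeing the data.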

Additional observations from a re-analysis of the deposited data

How the results depend on the processing

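The 9 sites of the 6 genes stayed 9 with any overlap and with strand ignored, and 6 were left, 1 in each gene, among the sites wider than the median and also among those whose sequence occurs once in the genome. The authors' gene names gave 8, without MCL1. The number of listed apoptosis genes with a site ranged from 8 with the wider sites to 11 with strand ignored, and the share of all genes from 3.62% to 7.63%. The 3′UTR sites numbered between 4 and 8. The 4 are of the 6 sites left by either of these filters, and the 8 are of all 9 with any transcript counted. The share of G fell outside its interval in 1 setting, without TNFRSF21, at 7.03%. The share of C and A was 54.4% with sites extended by 10 nt, 57.1% with the last base as listed and 62.7% without TNFRSF21. In windows 300 nt away it was 48.4%. No paired analysis was possible because both replicates were pooled into 1 list, and for the same reason neither replicate could be left out.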

Other observations

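Direct partners of the 6 proteins were taken from a further list of 18 genes, some of which are also in the apoptosis lists. Of these, USP9X and XPO1 had YBX1 sites (11.1%, against 6.77% of all protein-coding genes that have a 3′UTR). USP9X, a deubiquitinase that stabilises MCL1, had 1 site (chromosome X, 41232905 to 41232924) that began 381 nt after the stop codon in a 3′UTR of 4055 nt. It held 5 G and did not end in G. XPO1, the nuclear export receptor that BIRC5 binds, had 2 sites in coding sequence (chromosome 2, 61495588 to 61495610 and 61482427 to 61482449), which began in codons 298 and 968 of 1071. The other partners, among them HUWE1 and AURKB, had no listed site.

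The authors' gene column names BCL2L11, a BH3-only gene on the plus strand, for a site on the minus strand of chromosome 2 (111119424 to 111119441). On its own strand this site lies in the noncoding RNA gene MIR4435-2HG, so it is not counted for BCL2L11 here. The authors' names therefore gave 9 apoptosis genes with a site, with BCL2L11 and without MCL1 and DFFA.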
